A study of Mus musculus with 9 samples.

Results

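The genes described here encode the proteins of the mitochondrial ribosome, chosen by symbol as every gene named Mrpl or Mrps followed by a number. On an Affymetrix mouse expression array of 45101 probe sets, 76 of the 18194 genes with a probe set of their own fit that rule. Each gene was read on the brightest of its probe sets by mean level. The test asked for a value above the array's own 40th percentile on 3 or more of the 9 arrays. All 76 passed, among 13447 genes tested, and all 76 exceeded that percentile on all 9 arrays. None lay near the limit, since the lowest value of any of them was 6.08 log2 units (Mrps34 on a DM array) and the 40th percentiles ran from 4.97 to 5.05. Mrpl30 and Mrpl53 are measured only by probe sets that list a second gene and were not analysed here.

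The arrays profiled cumulus cells, granulosa cells that enclose the oocyte of an antral follicle, and compared 3 genotypes with 3 arrays each. Wildtype females were set against Bmp15-/- females, which lack the oocyte growth factor BMP15, and against Bmp15-/-Gdf9+/- females (double mutant, DM), which in addition keep 1 working copy of Gdf9, the gene of a second oocyte growth factor. All were B6/129 females aged 4 to 5 months that had received 5 IU of equine chorionic gonadotropin 48 hours earlier. Each sample held cumulus cells from about 75 to 100 large antral follicle complexes pooled from 3 to 4 mice, collected in 5 µM milrinone, which holds oocytes in meiotic arrest, with the oocytes stripped off. The labels name the 9 samples as separate collections and do not say whether any mouse gave cells to more than 1. The mutations were carried by the whole animal and not by 1 cell type.

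Mitochondria keep a small genome of their own that encodes core subunits of the respiratory chain and of ATP synthase, and a dedicated ribosome inside the organelle translates them. All proteins of that ribosome are encoded in the nucleus, made in the cytosol and imported. The large subunit joins amino acids and the small subunit reads the message, and to a core inherited from bacteria the animal ribosome has added many proteins of its own. In the ovary, inherited defects of small-subunit protein MRPS22 and of mitochondrial aminoacyl-tRNA synthetases are known causes of ovarian insufficiency, and cumulus cells supply the oocyte with products of their metabolism.

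By structure, 49 of the 76 genes encode large-subunit proteins, which include Mrps18a and Mrps30 despite their symbols, and 26 encode small-subunit proteins. Mrps36 was later assigned to the oxoglutarate dehydrogenase complex and is kept because its symbol fits the rule. Of the ribosomal proteins, 47 have a bacterial counterpart and 28 are mitochondrial additions. The genes lie on 17 chromosomes in the RefSeq table of assembly GRCm38.p6, with at most 11 on any of them.

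The labelled cell type was checked first. All 11 measured cumulus and granulosa markers exceeded the 40th percentile on every array. Their median level was 11.14 to 11.37 log2 units in wildtype, 10.71 to 10.84 in Bmp15-/- and 10.51 to 10.77 in DM, and in DM against wildtype 4 of the 11 were called lower and 3 higher. The part of this in the members' differences was not tested. Bmp15, an oocyte transcript, read 5.10, 9.58 and 8.41 log2 units on the wildtype arrays and 5.05 to 5.10 on the 6 mutant arrays (1 of its 3 probe sets). On that probe set wildtype array 1 sat at the mutant level. A second probe set read 3.97, 9.34 and 7.97 in wildtype and 3.45 to 3.67 on the mutant arrays. Its value on wildtype array 1 was above the mutants but below that array's 40th percentile (5.01). The third overlapped between wildtype and mutants. Wildtype array 1 could thus not be firmly checked by Bmp15. Over all probe sets the lowest correlation was r = 0.988 within a genotype and r = 0.975 between genotypes. In pooled cells, fewer cells of a type and less RNA per cell cannot be told apart.

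In DM cumulus cells most mitochondrial ribosomal protein transcripts were lower than in wildtype. With limma and Benjamini-Hochberg adjustment over all 13447 genes, 44 of 76 members were called lower at an adjusted p under 0.05, which is 57.9%, where 18.2% of all genes tested were called lower. Mrps9 alone was called higher, where 9.95% of all genes were. That makes 45 members called in either direction, where 28.1% of all genes were, and 31 not called. The median log2 difference was -0.37 over the members and -0.06 over all genes, and single members ran from -1.01 to 0.41. In 55 members all 3 DM arrays lay below all 3 wildtype arrays, a pattern seen in 27.4% of all genes.

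**Figure D1:**
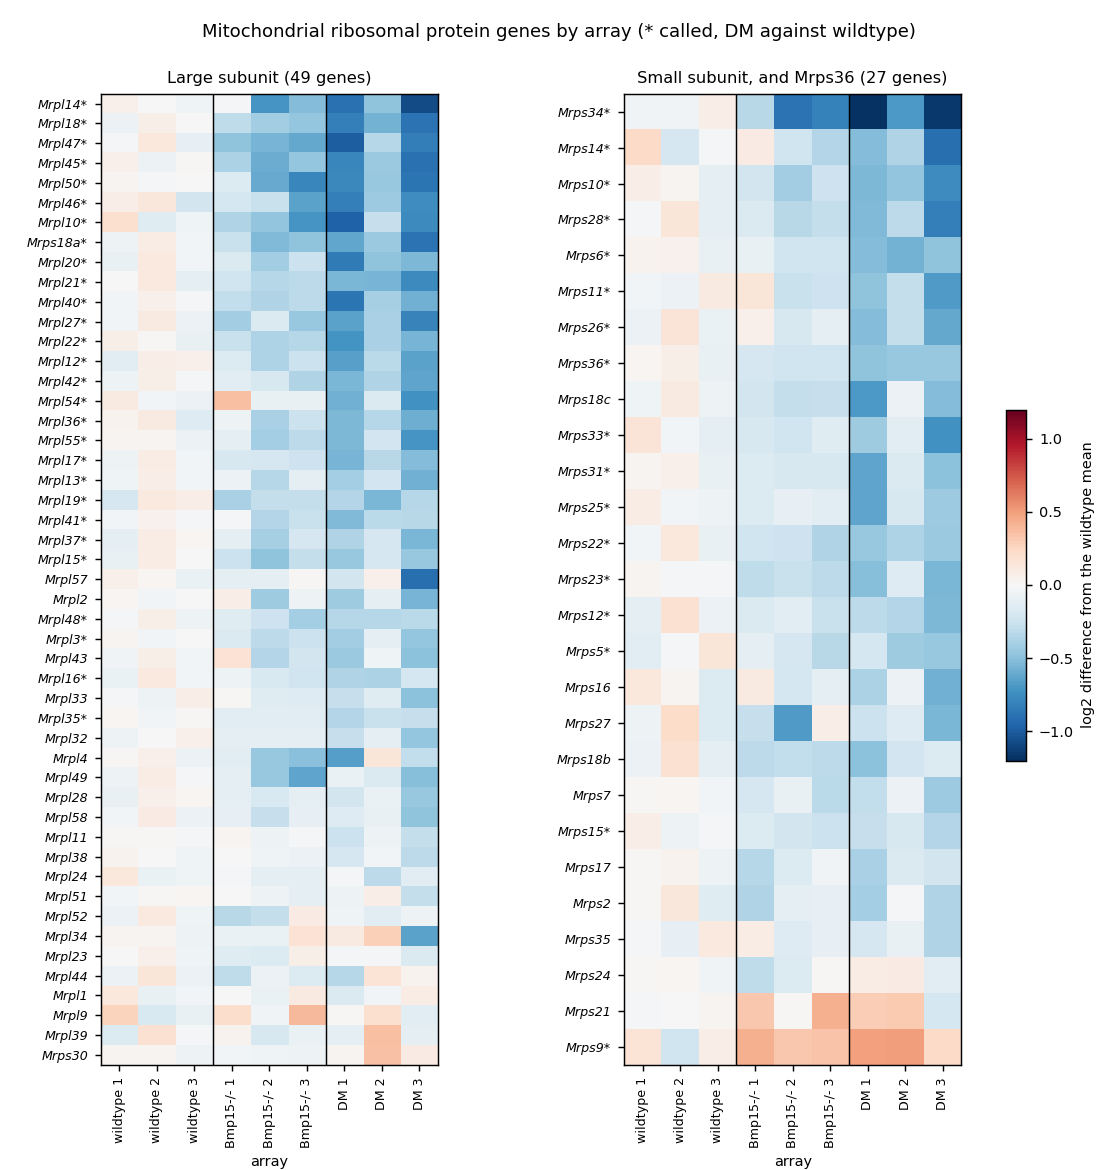
Heat map of the 76 genes (rows; 49 large-subunit genes on the left, 26 small-subunit genes and Mrps36 on the right) on the 9 arrays (columns), coloured by the log2 difference from the wildtype mean of the gene. Asterisks mark the 45 genes called in DM against wildtype, and blue dominates the DM columns, least on DM array 2.

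Genes of both subunits fell. Of the 49 large-subunit genes 28 fell in DM, with a median of -0.36, and of the 26 small-subunit genes 15 fell, with a median of -0.40. Proteins with a bacterial counterpart (27 of 47 lower, median -0.36) and mitochondrial additions (16 of 28 lower, median -0.38) were read in the same way. The small group of 9 small-subunit additions had 7 lower, among them Mrps22 and Mrps34. No test was made between these groups.

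Mrps34, a small-subunit addition required for a stable small subunit, had the lowest DM to wildtype difference of the members. Its log2 values were 7.23, 7.23 and 7.35 in wildtype, 6.94, 6.38 and 6.46 in Bmp15-/- cells, then 6.08, 6.58 and 6.11 in DM cells. All 6 mutant arrays lay below the wildtype arrays, and the Bmp15-/- and DM arrays overlapped. The DM difference was -1.01 (SE 0.17, adjusted p = 0.00256), a 2.02-fold lower level.

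Several large-subunit genes followed. Mrpl14, a core protein with a bacterial counterpart that lies at the interface between the subunits, read 7.40, 7.34 and 7.29 in wildtype, 7.32, 6.64 and 6.82 in Bmp15-/- cells, then 6.45, 6.86 and 6.27 in DM cells. The DM arrays lay below wildtype while 1 Bmp15-/- array lay among the wildtype values, and the DM difference was -0.82 (SE 0.19, adjusted p = 0.0117).

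Mrpl18, whose protein belongs to the part of the large subunit that in bacteria holds 5S rRNA, read 10.02, 10.16 and 10.08 in wildtype, 9.78, 9.67 and 9.62 in Bmp15-/- cells, then 9.27, 9.52 and 9.20 in DM cells. The 3 genotypes did not overlap, with Bmp15-/- between the other two. The DM difference was -0.75 (SE 0.10, adjusted p = 0.00087), the smallest adjusted p among the members.

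Mrpl47, a mitochondrial member of the bacterial L29 family, read 11.14, 11.29 and 11.07 in wildtype, 10.68, 10.61 and 10.55 in Bmp15-/- cells, then 10.18, 10.82 and 10.34 in DM cells. DM array 2 was above every Bmp15-/- array and the other DM arrays were below them. The DM difference was -0.72 (SE 0.15, adjusted p = 0.0072). It was -0.36 (adjusted p = 0.0674) when all its probe sets were averaged.

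Mrpl45, which ties the ribosome to the inner membrane beside the exit of the peptide tunnel, read 7.72, 7.59 and 7.68 in wildtype, 7.28, 7.07 and 7.20 in Bmp15-/- cells, then 6.88, 7.22 and 6.77 in DM cells. The mutants lay below wildtype on every array, and the DM difference was -0.70 (SE 0.12, adjusted p = 0.0029). Mrpl50, a large-subunit addition, had 8.84, 8.78 and 8.80 in wildtype, 8.64, 8.20 and 8.02 in Bmp15-/- cells, then 8.03, 8.35 and 7.93 in DM cells. Its DM difference was -0.70 (SE 0.16, adjusted p = 0.011), and its second probe set gave -0.62 (SE 0.11).

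**Figure D2:**
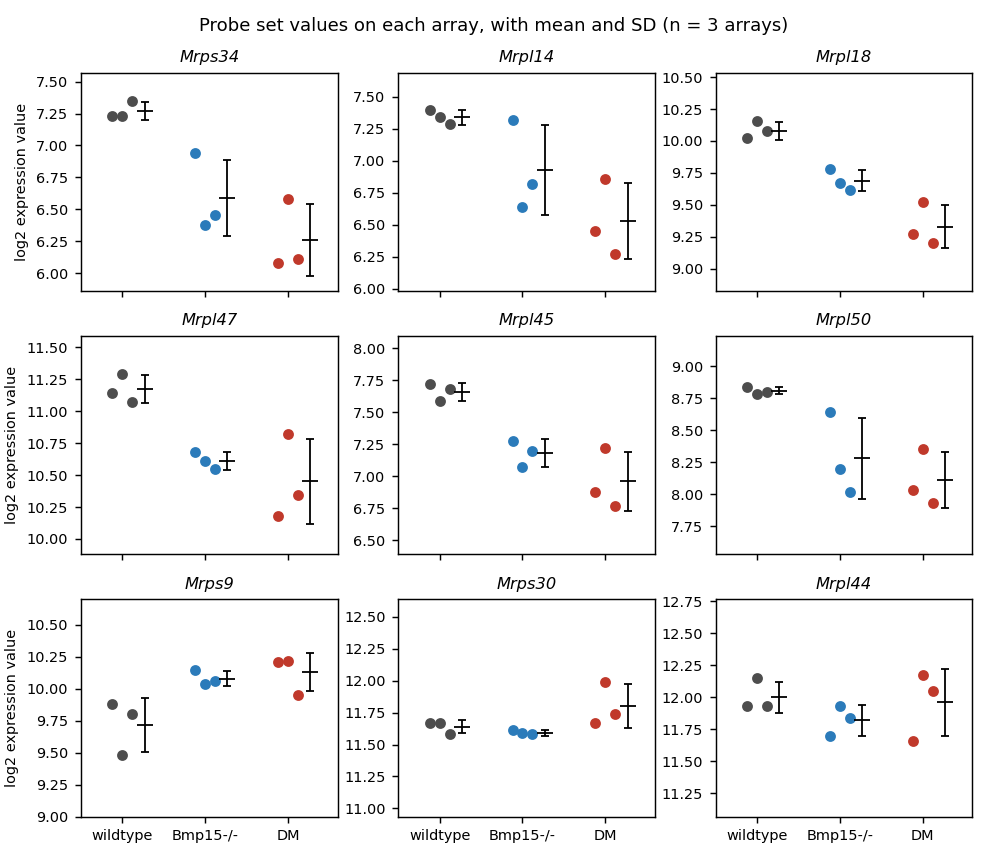
Log2 level of 9 genes on each of the 9 arrays (points, coloured by genotype, with the mean and SD of 3 arrays), each panel on its own scale. Mrps34, Mrpl14, Mrpl18, Mrpl47, Mrpl45 and Mrpl50 step down in DM, Mrps9 lies above wildtype on all mutant arrays (called in DM only, and not on its other probe sets), and Mrps30 and Mrpl44 overlap or lie slightly above wildtype on the probe sets plotted, although dimmer probe sets of Mrpl44 were called lower in both mutants.

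Other members with a known place in the ribosome fell by less. Mrpl12, a stalk protein that also binds the mitochondrial RNA polymerase, differed by -0.54 (SE 0.12, adjusted p = 0.00796), from a mean of 9.83 ± 0.12 (SD, n = 3) in wildtype to 9.29 ± 0.19 in DM. Mrps12, at the decoding centre, differed by -0.40 (SE 0.11, adjusted p = 0.0206), and its call was lost under both other scalings of the arrays and without wildtype array 2 or DM array 3. Mrps22, the small-subunit protein linked to ovarian insufficiency, differed by -0.42 (SE 0.09, adjusted p = 0.00669), with all DM arrays (9.86, 9.95 and 9.87) below all wildtype arrays (10.28, 10.44 and 10.23). Mrps6, another small-subunit core protein, read 10.79, 10.80 and 10.66 in wildtype and 10.23, 10.18 and 10.27 in DM, a difference of -0.52 (SE 0.08, adjusted p = 0.00197). Mrps18a fell by 0.65 (SE 0.12, adjusted p = 0.00454) and Mrps36, which is no longer counted as ribosomal, fell by 0.46 (SE 0.08, adjusted p = 0.00237).

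Members that were not called included the brightest probe sets in wildtype. Mrpl24 read 12.38, 12.17 and 12.20 in wildtype and 12.24, 11.94 and 12.12 in DM, and the difference was -0.14 (SE 0.10, adjusted p = 0.329). Mrpl44, which is related to double-stranded RNA nucleases, read 11.93, 12.15 and 11.93 in wildtype and 11.66, 12.17 and 12.05 in DM, and its interval for the difference ran from -0.35 to 0.26. That holds for the probe set used only: others of Mrpl44 were called lower in DM (-0.76, SE 0.17, adjusted p = 0.0157 over all probe sets, and -0.89, SE 0.15, adjusted p = 0.00472) and in Bmp15-/- (-0.73 and -0.79). The mean of its probe sets was called lower in both mutants, at -0.45 (adjusted p = 0.0155) in DM and -0.50 (adjusted p = 0.0269) in Bmp15-/-. Among the dimmest, Mrpl4 was not called (-0.27, SE 0.18, adjusted p = 0.301), with 1 DM array at 7.13 above all wildtype arrays (7.00, 7.04 and 6.91). Mrps5 was called lower (-0.36, SE 0.11, adjusted p = 0.0324), from 6.88, 6.99 and 7.16 in wildtype to 6.80, 6.58 and 6.56 in DM. That call was lost without wildtype array 2 or 3 or DM array 2 or 3 (adjusted p up to 0.114), under both other scalings, and as a mean over its probe sets (-0.11). Mrpl58, the peptidyl-tRNA hydrolase that rescues stalled mitochondrial ribosomes, was not called either (-0.24, SE 0.12, adjusted p = 0.162).

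Mrps9, a small-subunit protein with a bacterial counterpart, moved the other way on the probe set used. It read 9.88, 9.48 and 9.80 in wildtype, 10.15, 10.04 and 10.06 in Bmp15-/- cells, then 10.21, 10.22 and 9.95 in DM cells, so no mutant array overlapped wildtype. The DM difference was 0.41 (SE 0.12, adjusted p = 0.0328) and the Bmp15-/- difference 0.37 (SE 0.12, adjusted p = 0.0933). None of its other probe sets was called: they gave 0.23, in the same direction, and -0.15 and -0.19 in DM, and their mean with the used one gave 0.07 (adjusted p = 0.603). The call was also lost without wildtype array 2 (0.29, adjusted p = 0.106), without wildtype array 3, without DM array 1 or 2, and in a fit of only the genotypes compared (adjusted p = 0.0664).

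Probe sets of a gene differed elsewhere as well. Of the 44 members called lower and Mrps9, 21 had at least 1 further probe set above the filter, 40 probe sets in all. Of these 40, 25 had the sign of the used probe set and 15, spread over 12 genes, had the opposite sign, although none of the 15 was itself called over all probe sets. Of the 31 members not called, 14 had further probe sets above the filter, 25 in all. Of these 25, 6 were called lower in DM over all probe sets and none higher: the Mrpl44 pair above, and 1 each of Mrpl51 (-0.73, SE 0.16), Mrpl9 (-0.59, SE 0.11), Mrpl11 (-0.48, SE 0.11) and Mrpl49 (-0.47, SE 0.09). Mrpl13 fell by 0.41 on the used probe set (SE 0.11, adjusted p = 0.0257) while the others, with mean levels of 10.50 and 9.78, gave 0.05 and 0.02, and its call was lost without any 1 wildtype array and without DM array 1 or 3. Mrpl21 fell by 0.62 (SE 0.10, adjusted p = 0.00166) while a dimmer one, of mean level 7.78, gave 0.14, and the mean of its probe sets was not called (-0.13, adjusted p = 0.211). With the mean of all probe sets of each gene in place of the brightest, 32 members were called lower and none higher. That is 42.1% of members, where 20.7% of all genes were called lower and 8.9% higher.

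In Bmp15-/- cumulus cells without loss of a Gdf9 copy the same genes lay only slightly below wildtype. Here 4 of 76 members were called lower, which is 5.26%, where 5.78% of all genes tested were called lower, so the share called was near the background. None was called higher, where 3.29% of all genes were. The 4 were Mrps34 (-0.68, SE 0.17, adjusted p = 0.0398), Mrpl47 (-0.56, SE 0.15, adjusted p = 0.0493), Mrpl45 (-0.48, SE 0.12, adjusted p = 0.0403) and Mrpl18 (-0.40, SE 0.10, adjusted p = 0.0419). These adjusted p-values lie close to the threshold. No member was called without wildtype array 1, 2 or 3, where 2.71%, 2.21% and 2.54% of all genes were called lower. None was called without Bmp15-/- array 2 or 3, where 2.85% and 2.18% of all genes were. Without DM array 2, 9 were called (11.8% of members, where 8.31% of all genes were called lower). The fit without Bmp15-/- array 1 called 2, where 4.24% of all genes were called lower. The fit with the replicate number as a block also called 2, where 5.0% were. Except without DM array 2, the share of all genes thus fell in these fits too. The Mrpl47 difference was -0.22 (adjusted p = 0.321) when its probe sets were averaged.

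Taken over all 76, called or not, the members still leaned down. The median Bmp15-/- difference was -0.20 over the members and -0.04 over all genes, 70 of 76 were negative (92.1%, against 56.4% of all genes), and in 42 all 3 Bmp15-/- arrays lay below all 3 wildtype arrays, where 23.4% of all genes showed that pattern. At an unadjusted p under 0.05, 28 members were lower and 1 was higher, where 16.8% of all genes were lower and 9.6% higher. After each array was centred on its median the members' median was -0.08 and that of all genes was 0.08. Relative to the median of all genes the members' median was -0.16 both as deposited and after centring. Under all 3 scalings (as deposited, centred and quantile-normalized) 56 of 76 were negative. The matching share of all genes is not given. For 60 of the 76 the 95% interval of the difference lay within 1.5-fold either way, against 28 of 76 for DM.

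The direct comparison of DM with Bmp15-/- asks what the loss of a Gdf9 copy adds when BMP15 is already absent. No member was called by limma in either direction, where 1.61% of all genes were called lower and 1.64% higher. At an unadjusted p under 0.05, 17 members were lower and none higher, where 11.2% of all genes were lower and 8.66% higher. The median difference was -0.17 against -0.03 over all genes, and 19 members had all DM arrays below all Bmp15-/- arrays, a pattern of 12.5% of all genes. The members with the lowest adjusted p were Mrps6 (-0.34, SE 0.08, adjusted p = 0.0609) and Mrpl18 (-0.35, SE 0.10, adjusted p = 0.0928). Mrpl54, a large-subunit addition, had the lowest value of this comparison (-0.56, SE 0.16, adjusted p = 0.0955), from 8.81, 8.36 and 8.36 in Bmp15-/- cells to 7.87, 8.27 and 7.72 in DM cells.

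The larger number of calls in DM against wildtype than in Bmp15-/- against wildtype therefore does not show that the mutants differ. For 66 of 76 members the 95% interval of the DM to Bmp15-/- difference lay within 1.5-fold either way, and the bounds over all members ran from -0.93 to 0.51. Without DM array 2, 5 members (Mrpl18, Mrpl54, Mrps25, Mrps26 and Mrps31) were called lower in DM than in Bmp15-/-, which is 6.58% of members where 4.49% of all genes were.

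DM array 2 stood apart from the other DM arrays. The members' median difference from the wildtype mean was -0.43 on DM array 1, -0.20 on DM array 2 and -0.49 on DM array 3, beside -0.14, -0.24 and -0.24 on the Bmp15-/- arrays and -0.05 to 0.05 on the wildtype arrays. DM array 2 thus lay among the Bmp15-/- arrays. It was the highest of the 3 DM arrays in 62 of 76 members (81.6%), where 40.7% of all genes showed this. The members also varied together within genotypes: the mean pairwise correlation of their deviations from the genotype means over the 9 arrays was 0.37, beside 0.02 over all genes tested, a description of values that share their arrays.

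**Figure D3:**
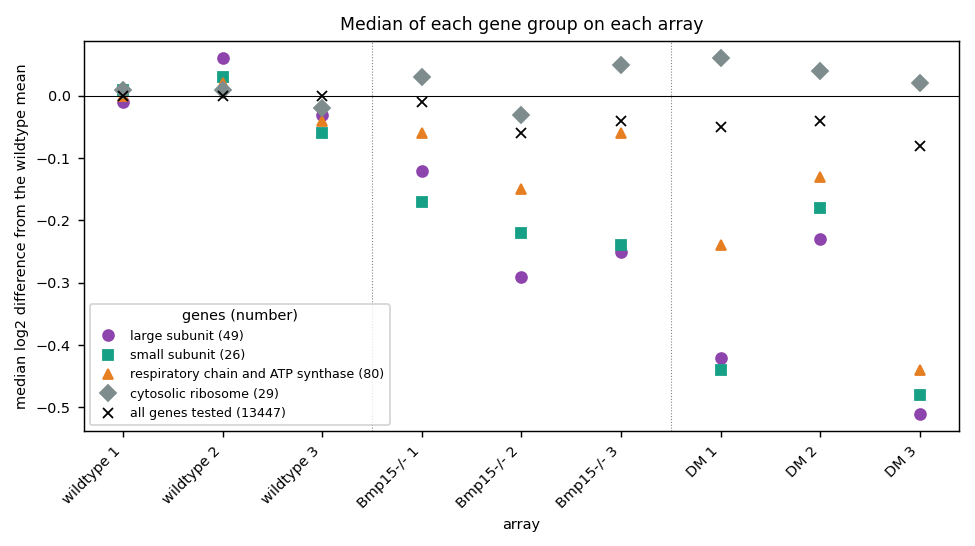
Median log2 difference from the wildtype mean on each of the 9 arrays for large-subunit genes, small-subunit genes, respiratory chain and ATP synthase genes, cytosolic ribosomal protein genes and all genes tested. Both subunits fall together on DM arrays 1 and 3, less on DM array 2, and cytosolic ribosomal protein genes stay between -0.03 and 0.06.

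Leaving out single arrays moved the DM count. It was 55 without DM array 2, 23 without wildtype array 2 and 27 without DM array 1, all of them lower. Without DM array 3 it was 29, of which 28 were lower and 1 higher. In the same order 20.8%, 12.6%, 13.9% and 14.3% of all genes were called lower, where 18.2% were with all arrays. Altogether 21 members were called lower in each of the 9 fits that left out 1 array, among them Mrps34, Mrpl14, Mrpl18, Mrpl47, Mrpl45, Mrpl50, Mrps6 and Mrps22. The share of all genes called lower in each of these fits is not given.

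The scaling between arrays mattered too. Centring each array on its median over tested genes raised the DM to wildtype median of all genes by 0.13, and 27 members were then called lower and 2 higher (Mrps9 and Mrps30, the latter at 0.29). Over all genes this turned the split from 1338 higher and 2442 lower to 2090 higher and 1571 lower, and quantile normalization gave 1738 and 1858, with 31 members lower and 1 higher. Relative to the median of all genes the members' median was -0.31 as reported, -0.27 after quantile normalization and -0.31 after centring. Under all 3 scalings 27 members were called lower, Mrps9 was called higher and 64 of 76 were negative. The matching shares of all genes under all 3 scalings are not given.

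**Figure D4:**
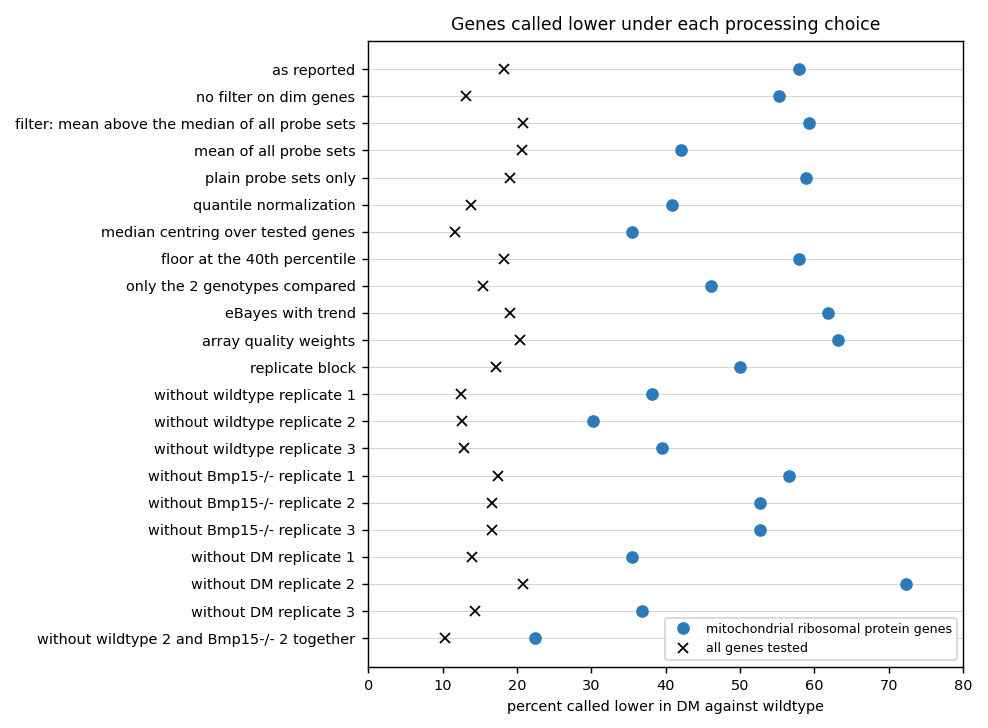
Percent of genes called lower in DM against wildtype under each of 22 processing choices, for the 76 mitochondrial ribosomal protein genes (circles) and all genes tested (crosses). The members' share runs from 22.4% to 72.4% and is above that of all genes, 10.3% to 20.8%, under every choice shown.

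Other properties of the samples moved with genotype. The difference between the 3' and 5' control probe sets of Gapdh, a sign of how far RNA or its amplified copies are shortened, was 0.52 to 0.59 log2 units on wildtype arrays, 0.66 to 0.73 on Bmp15-/- arrays and 0.79 to 0.95 on DM arrays, highest on DM array 2. For beta-actin it was 1.87 to 1.90, 1.85 to 1.92 and 1.85 to 2.12. The interquartile range over all probe sets was 3.37 to 3.42 log2 units on wildtype arrays. It was 3.20 to 3.29 on Bmp15-/- arrays, and 3.23, 3.34 and 3.16 on DM arrays 1, 2 and 3. The part of these shifts in the members' differences was not tested.

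Traces of other cells were read from marker lists. The summed log2 level of 16 oocyte markers was 88.1 to 111.1 in wildtype, 85.4 to 100.9 in Bmp15-/- and 83.0 to 91.0 in DM, and it was highest on wildtype array 2 and Bmp15-/- array 2. Without those arrays 17 members were called lower in DM and none higher. That is 22.4% of members, where 10.3% of all genes were called lower and 6.14% higher. The 9 theca and stroma markers, of which 4 to 6 exceeded the 40th percentile per array, summed to 48.1 to 49.9, 49.8 to 50.7 and 51.6 to 53.5 in the same order. Of the 5 that were tested, 3 were called higher in DM and 1 lower, Pdgfrb (-0.37). The smooth muscle actin gene Acta2 rose by 2.09 in DM (SE 0.19, adjusted p = 0.000117), though only by 0.21 (adjusted p = 0.181) on its brightest probe set with a plain suffix (_at or _a_at). The 3 erythroid markers summed to 16.7 to 17.6, 14.6 to 16.4 and 14.4 to 15.0, the 7 immune markers to 33.9 to 34.6, 34.8 to 35.2 and 34.4 to 35.0, and the 6 endothelial markers to 27.5 to 28.0, 27.8 to 28.1 and 27.5 to 27.8. No marker is listed at 0 on this scale, and the part of these cells in the members' differences was not tested.

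Genes that work with the mitochondrial ribosome were read from lists. Of the ribosomal proteins named otherwise, Chchd1 was lower in DM (-0.31, SE 0.08, adjusted p = 0.0234), and Dap3 (-0.02), Ptcd3 (-0.16) and Gadd45gip1 (-0.23) were not called. Of 26 assembly factors 6 fell in DM and none rose, with a median of -0.19. Malsu1, which keeps the large subunit from joining too early, was the lowest by p among them (-0.49, SE 0.12, adjusted p = 0.0135), and the RNA-binding factors Mterf3 (-0.40, SE 0.12) and Mterf4 (-0.53, SE 0.16) also fell. The calls of Chchd1, Malsu1, Mterf3 and Mterf4 were each lost without wildtype array 2, and all but that of Malsu1 without other single arrays too.

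Of 13 translation factors 3 fell and 1 rose in DM. The elongation factor Gfm1 fell by 0.64 (SE 0.14, adjusted p = 0.00906), and Slirp fell by 0.47 (SE 0.11, adjusted p = 0.0102). Lrpprc, whose protein binds SLIRP and stabilises mitochondrial messages, rose by 0.80 (SE 0.14, adjusted p = 0.0034), from 8.94, 9.06 and 8.71 in wildtype to 9.88, 9.69 and 9.56 in DM. The 14 mitochondrial tRNA synthetases had 3 lower (Iars2, Sars2 and Ears2) and 1 higher (Nars2), with a median of -0.11; the Sars2 call was lost without wildtype array 2 or 3.

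Regulators of mitochondrial transcription and biogenesis were mixed, with 3 of 15 higher and 1 lower in DM. Gabpa, the DNA-binding subunit of an ETS-family factor also called nuclear respiratory factor 2, had means of 9.97 ± 0.03 in wildtype, 9.99 ± 0.11 in Bmp15-/- and 9.43 ± 0.05 in DM (SD, n = 3). It fell against wildtype (-0.54, SE 0.08, adjusted p = 0.00169) and against Bmp15-/- (-0.56, SE 0.08, adjusted p = 0.0105). Ppargc1a, a coactivator of mitochondrial biogenesis, rose by 0.98 (SE 0.13, adjusted p = 0.000765) at low levels, from 4.36, 4.53 and 4.22 in wildtype to 5.46, 5.17 and 5.42 in DM. The rise was 0.34 (adjusted p = 0.0183) once values below the 40th percentile of their array were set to it. Nrf1 (-0.23, adjusted p = 0.178), Yy1 (-0.02, adjusted p = 0.882) and Tfam (-0.14, adjusted p = 0.335) were not called. In Bmp15-/- against wildtype the mitochondrial RNA polymerase gene Polrmt (-0.76, SE 0.17, adjusted p = 0.0283) and the elongation factor gene Tefm (-1.04, SE 0.18, adjusted p = 0.0106) fell, and no gene of the assembly, translation factor or synthetase lists was called. The Polrmt call was lost without any 1 wildtype array and without Bmp15-/- array 1 or 2. The Gabpa call against Bmp15-/- was lost without Bmp15-/- array 2 (-0.53, adjusted p = 0.0524).

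The ribosome of the cytosol and the respiratory chain were set beside these genes. Of 29 cytosolic ribosomal protein genes with a probe set of their own, 1 was higher (Rpl22l1) and 1 lower (Rps27l) in DM, both paralogues of core proteins, and the median was 0.04. Of 80 nuclear genes for respiratory chain and ATP synthase subunits 27 fell in DM (33.8%) and none rose, with a median of -0.27. The lowest was Cox4i2, a tissue-restricted cytochrome oxidase subunit, at -3.57 (SE 0.16, adjusted p = 3.64e-06), while Ndufa9 (-0.55, SE 0.09) and Uqcr10 (-0.80, SE 0.13) were nearer to the ribosomal proteins. The differences between these lists were not tested.

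**Figure D5:**
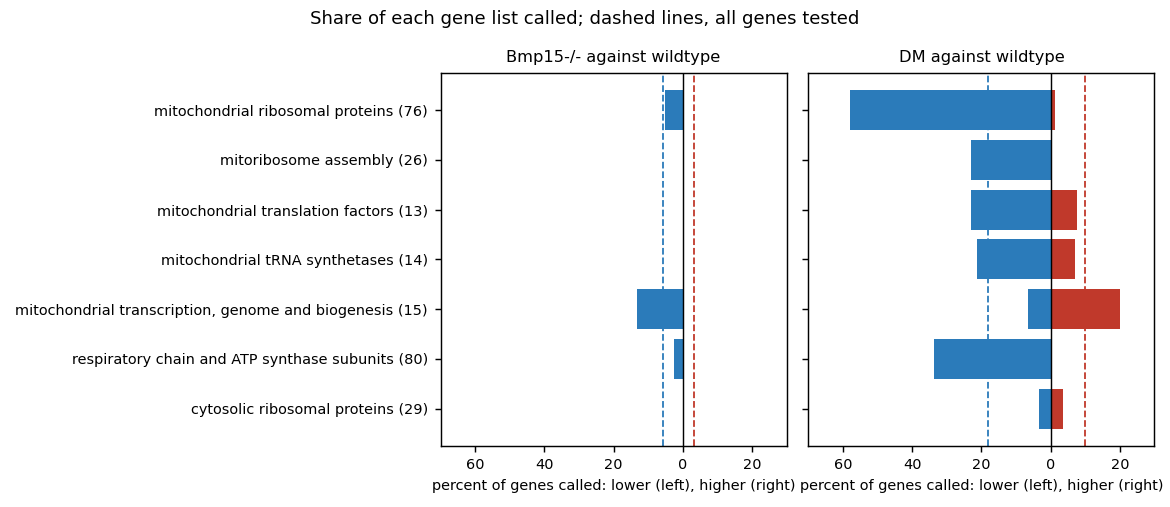
Percent of the mitochondrial and ribosomal gene lists called lower (blue, left of 0) and higher (red, right of 0) in Bmp15-/- and DM against wildtype, with list sizes in brackets and dashed lines at the percentages over all genes tested. Of the lists drawn, mitochondrial ribosomal proteins have the longest bar to the left in DM against wildtype (57.9%) and respiratory chain and ATP synthase subunits the next (33.8%); cell type marker lists are not drawn.

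Promoter sequences were read for 67 of the 76 members that matched the RefSeq table of GRCm38.p6, in windows from 250 bases before to 50 bases after each start, on both strands. The ETS core TTCCGG was present in 38 of 67 members (56.7%), in 28.5% of 10844 tested genes and in 16.7% of all 27025 genes with a window. The longer ETS form ACTTCCGG, which contains that core, was present in 12 members (17.9%, against 8.1% of tested genes), and the YY1 motif AAGATGGC in 12 (17.9% against 4.9%). The NRF1 core GCATGCGC was found in 8 (11.9% against 5.5%), and the longer palindromic NRF1 motif, which contains the core, in 3 (4.5% against 2.1%). The SP1 motif GGGCGG was found in 34 members (50.7% against 65.3%) and the E box CACGTG in 5 (7.5% against 11.2%). Median GC content was 58.3% in member windows and 61.7% in windows of tested genes. These are counts of letters and show no binding.

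The motifs were also counted by call in DM, with no test. The ETS core was in 19 of 38 called lower and in 19 of 29 of the rest, the YY1 motif in 7 of 38 and 5 of 29, and the NRF1 core in 3 of 38 and 5 of 29. To show where the motifs sit, the 60 bases before the start are given, 5′ to 3′ on the gene's strand, for 6 members called lower, with each match on either strand to the ETS core, its longer form, the YY1 motif or the NRF1 core in capitals. They are Mrpl3 (chr9:105053208-105053267, + strand) and Mrpl48 (chr7:100583131-100583190, - strand) and Mrps22 (chr9:98601680-98601739, - strand) for ETS, Mrpl36 (chr13:73330949-73331008, + strand) for YY1, and Mrpl17 (chr7:105811088-105811147, - strand) and Mrpl22 (chr11:58171604-58171663, + strand) for NRF1, the last with an ETS core as well. Mrps9 (chr1:42851173-42851232, + strand), the member called higher, has no match to these 3 in its stretch.
Mrpl3: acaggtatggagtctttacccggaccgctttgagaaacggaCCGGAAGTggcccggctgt
Mrpl48: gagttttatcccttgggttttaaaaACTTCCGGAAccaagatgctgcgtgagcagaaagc
Mrps22: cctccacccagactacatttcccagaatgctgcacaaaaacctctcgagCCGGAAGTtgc
Mrpl36: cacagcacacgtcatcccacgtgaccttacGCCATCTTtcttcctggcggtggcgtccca
Mrpl17: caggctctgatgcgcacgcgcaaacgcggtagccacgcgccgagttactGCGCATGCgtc
Mrpl22: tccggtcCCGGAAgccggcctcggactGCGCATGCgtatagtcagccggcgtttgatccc
Mrps9: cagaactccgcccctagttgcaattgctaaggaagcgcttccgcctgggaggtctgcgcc

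Many of these genes share a promoter region with a neighbour read in the other direction. A divergent start within 1000 bases was found for 25 of 67 members (37.3%), against 18.7% of tested genes with a window. In 1 such region both genes are members: Mrpl46 of the large and Mrps11 of the small subunit start 42 bases apart. Mrpl46 read 8.53, 8.59 and 8.23 in wildtype and 7.63, 8.01 and 7.70 in DM, a difference of -0.67 (SE 0.15, adjusted p = 0.0108). Mrps11 read 8.47, 8.44 and 8.61 in wildtype and 8.02, 8.22 and 7.83 in DM, a difference of -0.48 (SE 0.14, adjusted p = 0.0268), and neither overlapped between DM and wildtype. The Mrps11 call was lost without any 1 wildtype array and without DM array 1 or 3 (adjusted p of 0.0543 to 0.0902). The 41 bases between the starts (chr7:78783090-78783130, + strand) hold no ETS, YY1 or NRF1 match.
Mrpl46 to Mrps11: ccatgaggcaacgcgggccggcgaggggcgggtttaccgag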

How the data were processed

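The authors deposited 1 log2 value per probe set and array. The submitters' processing notes name RMA and the affy package. Versions, settings and a genome build are not stated there. RMA subtracts background, equalises arrays and shrinks changes of dim transcripts. The deposited probe set values still differed between arrays, with medians of 5.52 to 5.59 and interquartile ranges of 3.16 to 3.42 log2 units. Per the labels' protocols, 10 ng of RNA went through amplification in 2 cycles, which favours 3' ends. The number of arrays limits the precision.

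Probe sets were named from the platform annotation: of 45101, 34958 list 1 gene, 932 several and 9211 none, and 34754 were found in the RefSeq table. Levels of different probe sets were used to choose the brightest per gene and to describe some as bright or dim. No difference in level between probe sets was tested.

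The 9 arrays were fitted together in limma 3.58.1 under R 4.3.3 (lmFit, eBayes, genotype as the only term, 6 residual degrees of freedom), with tables made in pandas 2.3.3. A call is 2-sided, with p adjusted by Benjamini-Hochberg over 13447 genes and a threshold of 0.05. Members are described by counts and medians beside those of all genes, with no list test. Array values are given for the 6 largest called falls and the largest rises without overlap in each mutant, the extremes by wildtype mean, members whose probe sets disagree, and members named for their role. The members, lists and tests were chosen with earlier results of these data known, and several lists come from that work. On simulated data for DM against wildtype over 13447 genes (5 runs, 200 changed genes each), 51.3% of 1.5-fold changes, 86% of 2-fold changes and 99.7% of 4-fold changes were recovered, and 5.14% of calls were false. The simulated noise was independent between genes. In the real comparison 3780 genes were called and the members varied together (mean r 0.37), so these rates need not hold there. Alternatives covered the filter, probe set choice, scaling, floor, variance model, replicate block and arrays left out.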

Additional observations from a re-analysis of the deposited data

How the results depend on the processing

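Each count and median of members was recomputed under 21 alternatives, and no named gene's change reversed its sign while called: of 2952 such values 2744 kept their side of the threshold, 167 lost a call and 41 gained one. In Bmp15-/- against wildtype the 4 calls became 0 after quantile normalization, where 3.87% of all genes were called lower. They became 0 without wildtype array 2 and Bmp15-/- array 2 together, where 0.736% of all genes were. In a fit of only the genotypes compared they became 9 (11.8% of members, where 9.59% of all genes were called lower). With array quality weights they became 16 (21.1%, where 11.6% were), and with single arrays left out 0 to 9. The median of -0.20 became -0.08 after centring, while that of all genes went from -0.04 to 0.08. In DM against wildtype the 45 calls (44 lower, 1 higher) became 29 after centring (27 lower, 2 higher). They became 17 without those 2 arrays, all lower, and 23 to 55 with single arrays left out. The median of -0.37 became -0.27 after quantile normalization and -0.24 after centring. Over all genes 11.7% were called lower in DM after centring and 10.3% without those 2 arrays, where 18.2% were as reported. In DM against Bmp15-/- the 0 calls became 1 after centring (Mrpl54), 1 with a trended variance (Mrps6), and 0 to 5 with single arrays left out. The cause of these moves was not tested. Centring moved the share of lower calls over all genes from 63.7% to 36.3% in Bmp15-/- and from 64.6% to 42.9% in DM, and quantile normalization to 46.8% and 51.7%. With the replicate number as a block the Bmp15-/- count was 2 and the DM count 39 (38 lower, 1 higher), both against wildtype. In that fit 5.0% and 17.2% of all genes were called lower. Same-numbered arrays deviated together at r of -0.08 to 0.258 over 9 pairs, and an array matched its own number best in 8 of 18 looks. The highest r was between wildtype array 2 and Bmp15-/- array 2. These values neither show that the numbers pair the samples nor exclude it.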

Other observations

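Neighbours that share a promoter region with a mitochondrial ribosomal protein gene were read as well, chosen after their values were seen. Of 22 tested partners that are not members, 8 were lower, 1 was higher and 13 were not called in DM against wildtype. Of all genes tested 18.2% were called lower and 9.95% higher. Of the 12 members called lower whose partner was tested and is not a member, 5 had a partner called lower. Mrpl46 and Mrps11, partners of each other and both called lower, are not in these counts. The mitochondrial seryl-tRNA synthetase gene Sars2 starts 147 bases from Mrps12, and both fell, by 0.54 (SE 0.15, adjusted p = 0.0283) and 0.40 (SE 0.11, adjusted p = 0.0206). Eme1, a subunit of a DNA repair nuclease, starts 48 bases from Mrpl27 and fell by 1.15 (SE 0.15, adjusted p = 0.000652), beside 0.61 (SE 0.12, adjusted p = 0.00602) for Mrpl27. The histone chaperone gene Hira, 113 bases from Mrpl40, fell by 1.29 (SE 0.24, adjusted p = 0.00445), beside 0.62 (SE 0.12, adjusted p = 0.00458) for Mrpl40, but its brightest probe set with a plain suffix was not called (-0.29, adjusted p = 0.168). The chaperonin gene Tcp1, 238 bases from Mrpl18, fell by 0.38 (SE 0.07, adjusted p = 0.00542). In other regions the genes parted: Mrpl21 fell by 0.62 while Ighmbp2, 32 bases away, was at 0.00 (SE 0.09), Mrpl47 fell by 0.72 while Ndufb5, 308 bases away, was at -0.06 (SE 0.09), and Mrpl41 fell by 0.39 while Pnpla7, 935 bases away, rose by 0.77 (SE 0.13, adjusted p = 0.00298). The Mrpl21 call was lost with the mean of its probe sets (-0.13, adjusted p = 0.211), that of Mrpl47 likewise (-0.36, adjusted p = 0.0674), and that of Mrpl41 without any 1 wildtype array, without DM array 1 (adjusted p of 0.0535 to 0.0723) and after centring (-0.26, adjusted p = 0.0901).

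Lars2 and Hars2, genes of mitochondrial tRNA synthetases known from inherited ovarian insufficiency, were not called in DM. Lars2 read 10.12, 10.01 and 10.04 in wildtype and 9.65, 10.09 and 9.65 in DM, a difference of -0.26 (SE 0.12, adjusted p = 0.144), with DM array 2 again the highest DM array. Hars2 differed by 0.26 (SE 0.24, adjusted p = 0.462).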
